A study of Mus musculus with 6 samples.

Results

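The genes described here are the cadherins and non-clustered protocadherins, 43 of the 34745 genes in the deposited table of the study. They were chosen by their names, with earlier results of these data known, and comprise the numbered cadherins without the endothelial Cdh5, the numbered protocadherins with Pcdh11x, Celsr1 to Celsr3, Fat1 to Fat4, and Dchs1 and Dchs2. RNA was sequenced from the medial ganglionic eminence (MGE) of the mouse at embryonic day 12.5, the part of the ventral forebrain in which many cortical interneurons are born. One group was 3 samples of Sp9 null mutants, which lack a zinc finger transcription factor of the ventral forebrain, and the other was 3 samples of wild type littermates. Both groups came from the same mixture of C57BL/6J, 129S6 and CD1, and the labels give no other allele or agent. Neither the structure of the null allele nor the number of embryos in a sample is stated, so a p-value reflects no more than how these samples varied, and that variation may be technical.

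Cadherins are membrane proteins that hold cells together in the presence of calcium. Type I and type II cadherins bind their like on the neighbouring cell and reach the actin cytoskeleton through catenins, while the delta protocadherins adhere more weakly and take part in cell sorting and axon growth. Fat and Dachsous proteins are very large cadherins that bind each other across cell contacts, and Celsr proteins are adhesion receptors of the planar polarity pathway. In the embryonic forebrain, combinations of these proteins differ between neighbouring progenitor domains and between migrating neurons and the tissue they cross.

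The libraries held 6826447 to 10979280 counts, and 3 counts corresponded to 0.274 to 0.434 CPM (counts per 1000000 of the library, scaled by the TMM method). Sp9 had 12.9, 10.8 and 12.6 CPM in null replicates 1, 2 and 3, against 202, 246 and 187 CPM in wild type replicates 1, 2 and 3, so the labels and the targeted gene matched. The MGE markers Nkx2-1, Lhx6, Lhx8, Dlx2 and Gad1 were present in every library. In a principal component analysis the leading axis (53.6% of the variance) parted replicate 2 of either genotype from the other libraries, and the next axis (21.4%) parted the genotypes. Same-numbered libraries deviated together, so the model with genotype alone is given beside a model that also holds the replicate number (the block). This was clearest for number 2, whose deviations from the genotype means correlated by 0.741. Numbers 1 and 3 gave 0.338 and 0.549, against 0.366 and 0.234 when crossed, so their pairing is less certain. Over the whole table the model without the block called 22 of 14929 tested genes and the blocked model 597, where called means an adjusted p under 0.05 in the quasi-likelihood test of edgeR. Values below are listed for replicates 1, 2 and 3 of each genotype in that order.

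Of the 43 genes, 33 passed the filter on low counts and were tested. Without the block 0 of them were called, against 0.147% of all tested genes, and 4 had an unadjusted p under 0.05, against 5.91% of all tested genes. DESeq2, fitted without a block, called Pcdh19, and it called 0.481% of the genes with an adjusted p in that fit. With the block, edgeR called 2 of the 33 as higher in null libraries (6.06%, against a background of 2.22% of all genes) and 3 as lower (9.09%, against 1.78%). The genes that rose were the delta-2 protocadherins Pcdh19 and Pcdh18. The genes that fell were the type II cadherin Cdh22, the delta-1 protocadherin Pcdh1 and Celsr3. An unadjusted p under 0.05 in that fit was found for 13 of the 33 genes, against 17.2% of all tested genes. DESeq2 with the block called Pcdh19 and no other of these genes, with a background of 0.809%.

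All 5 called differences were small, and in bulk tissue a change in the number of cells of a type and a change in RNA per cell cannot be told apart. By the fit with the block Pcdh19 was 40.9% and Pcdh18 33.1% higher in null libraries, while Cdh22 stood at 0.755, Pcdh1 at 0.783 and Celsr3 at 0.859 times its wild type level. The null and wild type CPM ranges lay fully apart, with the null values higher, for 4 genes, namely Pcdh19, Pcdh18, Pcdh10 and Cdh11, a share of 12.1% against 5.86% of all tested genes. They lay apart with the null values lower for Cdh22 and Celsr2, a share of 6.06% against 6.71%, which is the background. Log2 fold changes of null over wild type were positive for 24 of the 33 genes, or 72.7%, against 48.9% of all tested genes, and their median was 0.13 against -0.005. That median moved with single libraries. It was 0.25 without null replicate 2, 0.03 without null replicate 3 and -0.04 without wild type replicate 2, and the medians of the 3 same-numbered pairs were -0.03, 0.16 and 0.05.

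Markers of some other cells, though not of all those listed, were lower in null libraries. Those of stomach and exocrine pancreas summed to 0, 0 and 0 CPM in null and 91.6, 91.6 and 116 CPM in wild type libraries, and those of microglia to 11.1, 9.15 and 6.53 CPM in null and 27.2, 29.4 and 25.2 CPM in wild type libraries. Markers of the MGE itself moved as well. Gad1, the enzyme that makes GABA, and Lhx6, a factor of MGE interneurons, were called lower with the block, with log2 fold changes of -0.80 and -0.45 (edgeR adjusted p of 3.15e-10 and 6.01e-06). Dlx2, a factor of ventral progenitors, was called higher at 0.39 (3.91e-05), and Nkx2-1 and Lhx8 were not called. The part of these markers in the 5 called genes was not tested.

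**Figure D1:**
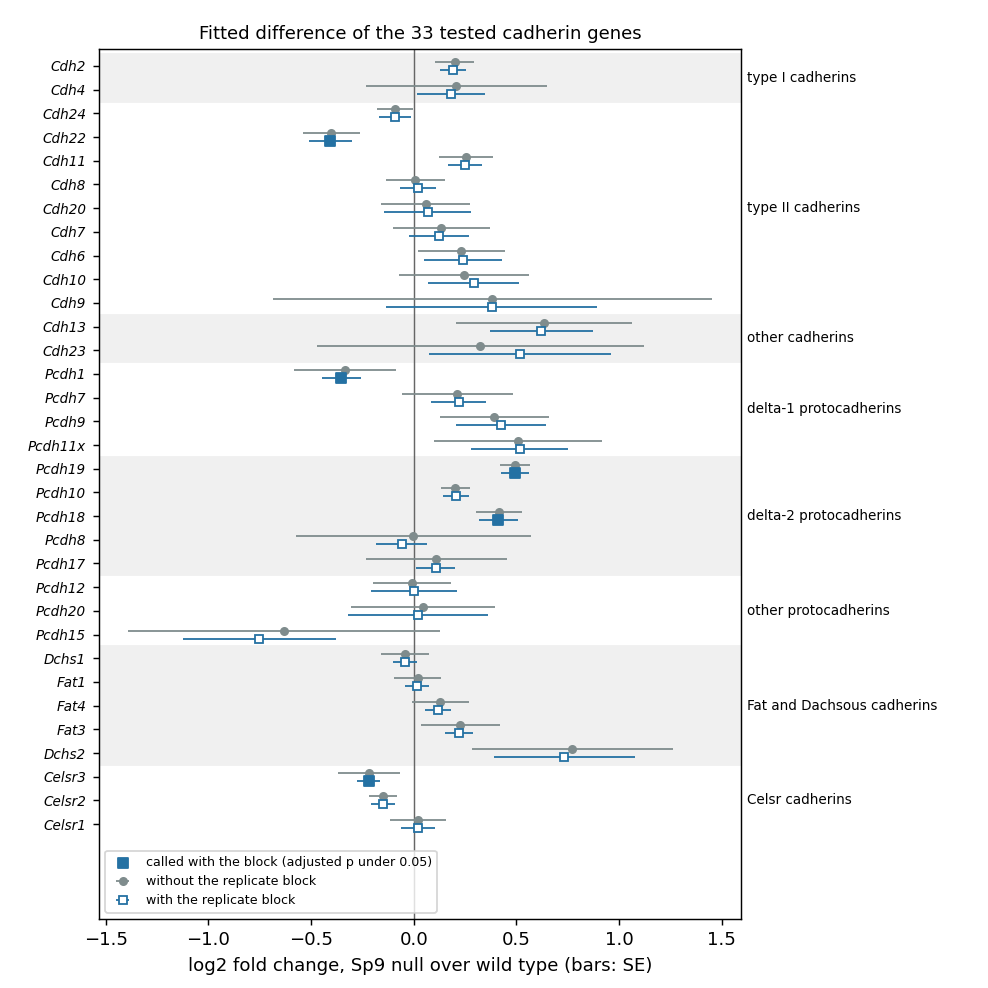
Log2 fold change of null over wild type for the 33 tested genes, grouped by subfamily. Grey circles show the edgeR fit without the replicate block and squares the fit with it, bars are standard errors, and filled squares mark the 5 genes called with the block. Pcdh19 and Pcdh18 lie to the right of 0, Cdh22, Pcdh1 and Celsr3 to the left, and the widest bars belong to the rare genes Cdh9, Cdh23 and Pcdh15.

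Levels of different genes are given as CPM per kilobase of merged exon, as means over the 6 libraries. Cdh2, or N-cadherin, the main adherens junction cadherin of the neural epithelium, was the most abundant of the set at 50.9 CPM per kilobase. It was followed by Dchs1, a ligand of Fat4, at 29.8, by Celsr3 at 23.4 and by Fat1 at 19.9 CPM per kilobase. Celsr2 and the type II cadherin Cdh24 came next, at 19.5 and 16.5 CPM per kilobase. The called genes were of middle rank apart from Celsr3, with 8.78 CPM per kilobase for Pcdh19, 7.70 for Cdh22, 6.86 for Pcdh18 and 4.89 for Pcdh1. The lengths behind the deposited FPKM values differ from the merged exons, and by FPKM Pcdh19 ranked 16 rather than 8 and Pcdh18 ranked 19 rather than 11 of the 43.

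**Figure D2:**
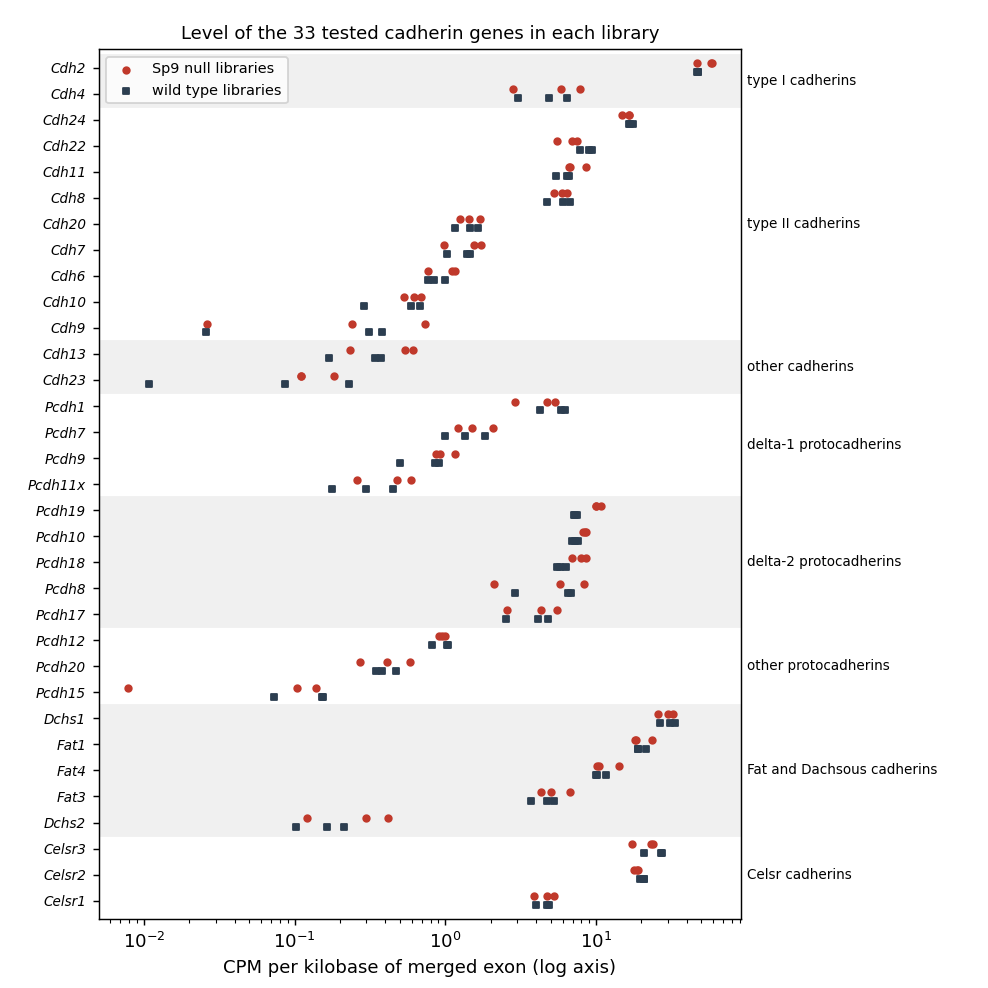
Level of the 33 tested genes in each library, as CPM per kilobase of merged exon on a log axis, grouped by subfamily. Red circles are the 3 null libraries and dark squares the 3 wild type libraries. Cdh2 stands at the top of the range, the lowest single points belong to Pcdh15, Cdh23 and Cdh9, and the genotypes overlap for all but 6 genes.

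Summed over the subfamilies, the Fat and Dachsous genes made up 25.99% of the level of the whole set, the type I cadherins 22.2%, the Celsr genes 18.7%, the type II cadherins 16.4% and the delta-2 protocadherins 12.9%. The delta-1 protocadherins added 3.003%. The delta-2 sum was 36.3, 32.4 and 39.4 CPM per kilobase in null and 31.3, 26.2 and 31.5 in wild type libraries, and the 2 ranges did not overlap, with the lowest null library just above the highest wild type library. That separation depended on the length measure, since sums of the deposited FPKM of the same genes overlapped between the genotypes. The type I sum was 53.2, 61.8 and 65.8 CPM per kilobase in null and 54.9, 50.8 and 52.1 in wild type libraries. The Celsr sum was 46.1, 41.6 and 46.5 CPM per kilobase in null and 53.3, 45.4 and 51.8 in wild type libraries. Both of these ranges overlapped between the genotypes. The sum over all 43 genes also overlapped, with 254, 251 and 269.8 CPM per kilobase in null and 262, 232 and 256 in wild type libraries.

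The delta-2 protocadherins carry in their cytoplasmic tail a motif that recruits actin regulators. Pcdh19, which binds together with N-cadherin and whose human counterpart is mutated in an X-linked epilepsy that mainly affects girls, lies on chromosome X, 133582860 to 133688987 (GRCm38, minus strand). It had 105, 112 and 105 CPM in null and 75.3, 78.00 and 75.6 CPM in wild type libraries, with means of 108 ± 4.13 CPM in null and 76.3 ± 1.47 CPM in wild type (SD, n = 3 each). All 3 null libraries were higher than all 3 wild type libraries, and replicate 2 was the highest library of both genotypes. The log2 fold change was 0.50 (SE 0.07) with an adjusted p of 0.0641 by edgeR without the block, and 0.50 (SE 0.07) with an adjusted p of 5.21e-06 with it. Pcdh19 was the single gene of the set that stayed called with the block after each pair of same-numbered libraries was left out, with adjusted p values of 0.0115 without pair 2 and 0.00158 without pair 3 by edgeR. It was also called by DESeq2 (adjusted p of 0.000939) and by edgeR without any expression filter (0.0276), but not by limma on the deposited FPKM (0.308).

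Since Pcdh19 is on the X chromosome, its values were set beside Xist, which is transcribed from the inactive X chromosome of females. Xist had 1388, 1037 and 2.04 CPM in null and 2660, 2389 and 644 CPM in wild type libraries. In the same order, Pcdh19 had 105, 112 and 105 CPM in null and 75.3, 78.00 and 75.6 CPM in wild type libraries. Ddx3y, a gene of the Y chromosome, had 37.03, 52.8 and 56.2 CPM in null and 1.77, 22.1 and 51.7 CPM in wild type libraries. Xist and Ddx3y both varied widely among libraries, and their ranges overlapped between the genotypes. In every same-numbered pair, however, Xist was lower and Ddx3y higher in the null library, so the block does not remove this difference. Its part in the Pcdh19 difference was not tested. The 5′ end of Pcdh19 overlaps Gm26851 on the other strand, and the strandedness of the libraries is not stated. Gm26851 had 15, 25 and 16 counts in null and 14, 10 and 14 counts in wild type libraries. Pcdh19 itself had 729, 1203 and 979 counts in null and 724, 855 and 757 counts in wild type libraries. The part of reads from the overlap in the Pcdh19 counts was not tested.

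Pcdh18, a protocadherin that binds the reelin adaptor Dab1, lies on chromosome 3, 49743296 to 49757325 (GRCm38, minus strand). It had 42.97, 46.2 and 37.2 CPM in null and 29.6, 33.9 and 31.1 CPM in wild type libraries, with means of 42.1 ± 4.58 CPM in null and 31.5 ± 2.22 CPM in wild type (SD, n = 3 each). Every null library was above every wild type library, with null replicate 3 the nearest to the wild type values. The log2 fold change was 0.41 (SE 0.09) with an adjusted p of 0.00661 by edgeR with the block, and 0.42 with 0.559 without it. The call was lost without pair 2 (adjusted p of 0.247 by edgeR) and in DESeq2 with the block (0.272). Endothelial markers summed to 120.4, 128 and 111 CPM in null and 119, 129 and 114 CPM in wild type libraries, and those of meningeal and mesenchymal cells to 39.1, 32.9 and 38.2 CPM in null and 45.5, 37.9 and 41.7 CPM in wild type libraries, the larger part of it from Pdgfra. Pdgfra was lower in null libraries, with a log2 fold change of -0.45 and an edgeR adjusted p of 0.0195 with the block, while Col1a1 and Col1a2 had positive values of 0.27 and 0.30 and were not called. The part of these cells in the Pcdh18 values was not tested.

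Pcdh10, which mice need for axons to grow through the ventral forebrain, lies 4.36 Mb from Pcdh18 on chromosome 3, 45378398 to 45435623 (GRCm38, plus strand). It had 129, 133 and 136 CPM in null and 116, 111 and 119.9 CPM in wild type libraries, and the ranges did not overlap. Its log2 fold change was 0.20 (SE 0.06) and it missed the threshold with the block (edgeR adjusted p of 0.0586) and without it (0.765). Its 3′ part overlaps 1700027H10Rik on the other strand, which had 49, 87 and 74 counts in null and 59, 58 and 57 counts in wild type libraries. Pcdh10 itself had 895, 1429 and 1271 counts in null and 1113, 1216 and 1201 counts in wild type libraries.

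In the other two delta-2 genes the genotypes overlapped. Pcdh17, which acts in the axons and synapses of basal ganglia circuits, had 55.99, 33.5 and 71.2 CPM in null and 62.5, 32.7 and 53.5 CPM in wild type libraries. Pcdh8, known in the adult brain as the activity-regulated arcadlin, had 26.2, 9.61 and 37.9 CPM in null and 29.6, 13.1 and 30.9 CPM in wild type libraries. In both genes replicate 2 was far the lowest library of each genotype, and neither gene was called in either fit, with edgeR adjusted p values of 0.611 and 0.868 with the block. Of the 5 delta-2 genes 2 were called higher with the block, where 2.22% of all tested genes were. Positive log2 fold changes were found for 4 of the 5, against 72.7% over the 33 genes and 48.9% over all tested genes. The group is set out because it holds the 2 genes called higher, so its share of calls is no separate evidence. Markers of the lateral ganglionic eminence and striatum (Six3, Ebf1, Foxp1, Isl1, Meis2 and Gsx2) summed to 377, 442 and 394 CPM in null and 352, 348 and 359 CPM in wild type libraries, without overlap and higher in the null group. Its members differed, since Six3, Meis2 and Foxp1 were called higher with the block, at log2 fold changes of 0.46, 0.24 and 0.33, while Ebf1, Gsx2 and Isl1 were not called, at -0.32, -0.09 and 0.08. The part of these markers in the delta-2 values was not tested.

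**Figure D3:**
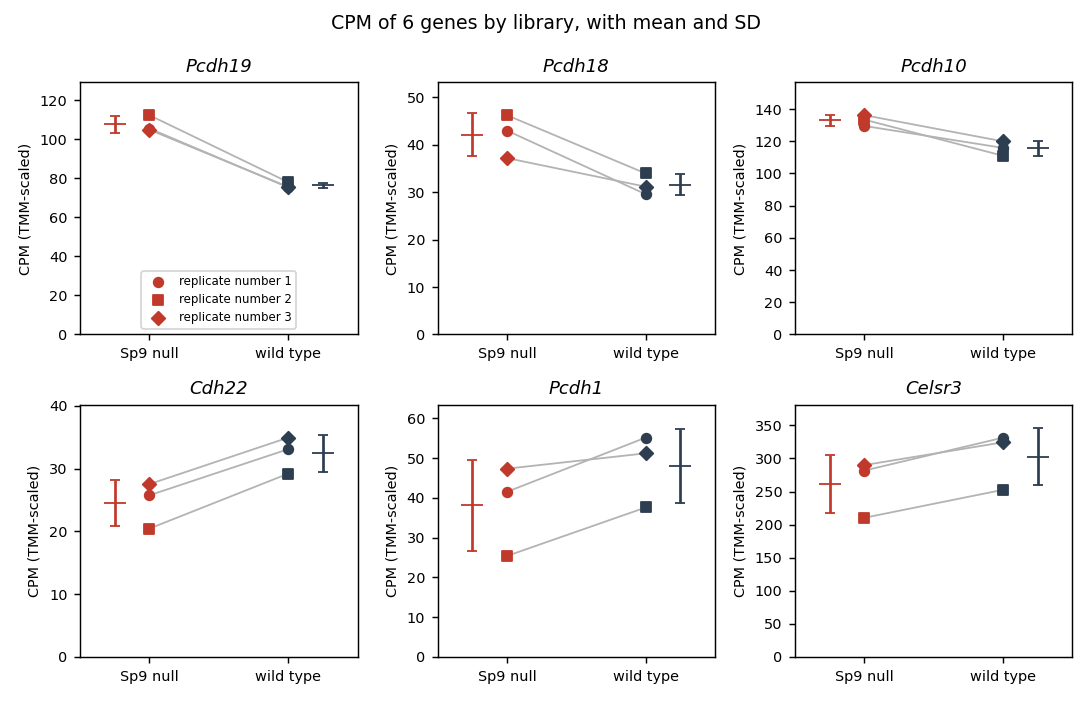
CPM of the delta-2 protocadherins Pcdh19, Pcdh18 and Pcdh10 (top) and of the 3 genes that fell with the block, Cdh22, Pcdh1 and Celsr3 (bottom). Symbols give the replicate number, grey lines join same-numbered libraries, and the horizontal ticks with bars are the mean and SD of 3 libraries. The null value is the higher one of each pair in the top row and the lower one of each pair in the bottom row.

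Because the delta-2 genes held the 2 genes that rose, the 250 bases before their RefSeq starts are shown for the 3 with separate ranges, beside Cdh22, the called gene with the largest fall. RefSeq windows on GRCm38.p6 were found for 29 of the 43 genes, with 32 starts. Capitals mark 2 short motifs on either strand, the GC box GGGCGG, or CCGCCC when read from the other strand, and the CCAAT box, or ATTGG when read from the other strand. The GC box is known as a site of Sp family proteins, and the CCAAT box was chosen after the sequences had been seen. The windows are chrX:133688994-133689243 (minus), chr3:49757317-49757566 (minus), chr3:45378148-45378397 (plus) and chr2:165234738-165234987 (minus).
Pcdh19: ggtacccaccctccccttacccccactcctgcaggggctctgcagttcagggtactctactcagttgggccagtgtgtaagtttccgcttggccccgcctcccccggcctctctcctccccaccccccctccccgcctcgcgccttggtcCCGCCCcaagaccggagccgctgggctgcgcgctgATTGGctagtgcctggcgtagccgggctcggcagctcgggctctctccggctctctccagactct
Pcdh18: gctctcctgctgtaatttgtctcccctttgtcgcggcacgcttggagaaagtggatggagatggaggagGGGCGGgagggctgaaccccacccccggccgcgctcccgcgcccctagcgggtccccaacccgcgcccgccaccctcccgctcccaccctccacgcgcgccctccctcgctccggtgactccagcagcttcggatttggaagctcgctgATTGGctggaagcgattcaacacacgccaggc
Pcdh10: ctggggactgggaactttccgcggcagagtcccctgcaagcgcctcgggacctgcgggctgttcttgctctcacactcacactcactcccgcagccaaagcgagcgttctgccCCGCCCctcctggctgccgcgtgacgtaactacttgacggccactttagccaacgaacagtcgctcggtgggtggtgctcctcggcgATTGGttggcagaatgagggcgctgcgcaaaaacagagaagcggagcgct
Cdh22: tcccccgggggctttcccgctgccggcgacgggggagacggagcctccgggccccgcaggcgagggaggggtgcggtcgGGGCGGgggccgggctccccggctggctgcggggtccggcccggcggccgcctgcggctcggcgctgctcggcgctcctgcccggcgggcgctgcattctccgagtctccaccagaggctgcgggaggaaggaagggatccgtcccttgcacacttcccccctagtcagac
The 3 protocadherin windows share 1 copy of each motif, with the CCAAT box nearer the start. It lies 65 to 61 bases before the start in Pcdh19, 32 to 28 in Pcdh18 and 50 to 46 in Pcdh10, each time read as ATTGG. Over all 5 delta-2 genes the CCAAT box was present in 5 and the GC box in 4, all but Pcdh8. The 5 include Pcdh17 and Pcdh8, which were not called in either fit. The group was picked for its calls and the CCAAT box after the sequences were seen, so no conclusion is drawn from these counts. Of the 32 windows of the whole set, 15 (46.9%) held a CCAAT box, against 33.8% of 32851 RefSeq windows, and 11 (34.4%) held a GC box, against 32.7%. The Cdh22 window held the GC box and no CCAAT box, and so did that of Celsr3. For Pcdh1, which was also called lower, no window was found. These are matches of letters and not measured sites.

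Among the delta-1 protocadherins, Pcdh1 fell in the fit with the block. It is an adhesion protein of epithelia and brain on chromosome 18, 38185914 to 38212053 (GRCm38, minus strand). It had 41.5, 25.4 and 47.3 CPM in null and 55.2, 37.6 and 51.2 CPM in wild type libraries, and the ranges overlapped, although each null library was below the wild type library of the same number. The log2 fold change was -0.35 (SE 0.09) with an adjusted p of 0.0229 by edgeR with the block, and -0.34 (SE 0.25) with 0.909 without it. The call was lost without pair 1 (adjusted p of 0.0563 by edgeR) or pair 2 (0.441), and the unblocked log2 fold change was -0.10 without null replicate 2.

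The other delta-1 genes had positive log2 fold changes and were not called in either fit. Pcdh11x, X-linked like Pcdh19, had 8.25, 3.64 and 6.64 CPM in null and 4.16, 2.46 and 6.29 CPM in wild type libraries, with a log2 fold change of 0.51 that was 0.22 without wild type replicate 2 and 0.89 without wild type replicate 3. Each null library exceeded the wild type library of the same number, but the groups overlapped. The part of the Xist and Ddx3y differences in the Pcdh11x values was not tested. Pcdh7, a protocadherin of developing axons, had 16.1, 12.97 and 22.1 CPM in null and 14.3, 10.49 and 19.4 CPM in wild type libraries, and Pcdh9 had 5.93, 6.25 and 7.82 CPM in null and 6.14, 3.38 and 5.79 CPM in wild type libraries. Both overlapped between the genotypes, with log2 fold changes of 0.21 and 0.39.

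Of the protocadherins outside the delta groups, the endothelial Pcdh12 had 6.08, 5.51 and 5.78 CPM in null and 6.35, 4.93 and 6.19 CPM in wild type libraries, a log2 fold change of -0.01, which stands beside the like endothelial marker sums given above. Pcdh20 had a log2 fold change of 0.04 at 3.18, 1.49 and 2.25 CPM in null and 2.08, 1.92 and 2.60 CPM in wild type libraries, again with overlap. Pcdh15, a tip link protein of hair cells, was rare at 2.46, 0.187 and 3.32 CPM in null and 3.64, 1.73 and 3.69 CPM in wild type libraries, lower in null than in wild type in all 3 pairs and not called (edgeR adjusted p of 0.298 with the block).

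Of the type I cadherins, Cdh2 had 379.6, 473 and 465 CPM in null and 386, 383 and 379 CPM in wild type libraries. The wild type libraries lay close together, null replicates 2 and 3 were well above them, and null replicate 1 was within their range. Cdh2 was not called, with a log2 fold change of 0.19 (SE 0.06) and an adjusted p of 0.0814 by edgeR with the block, and passed the threshold without pair 1 (7.03e-05) but not without pair 2 (0.601) or pair 3 (0.613). Cdh4, or R-cadherin, had 42.5, 20.5 and 57.2 CPM in null and 46.7, 21.99 and 35.2 CPM in wild type libraries, with overlapping groups and replicate 2 the lowest of both. Its log2 fold change of 0.21 turned negative, to -0.15, without null replicate 3. Cdh1 and Cdh3, the epithelial E- and P-cadherins, were too rare to test. Cdh1 had 5, 10 and 8 counts in null and 11, 9 and 7 counts in wild type libraries, and Cdh3 had 2, 1 and 2 counts in null and 12, 1 and 3 counts in wild type libraries. Markers of surface epithelium, all too rare to test, summed to 0.579, 1.40 and 1.39 CPM in null and 3.85, 3.19 and 2.30 CPM in wild type libraries. Krt8 differed most, with 0, 0 and 1 counts in null and 22, 13 and 7 counts in wild type libraries. Krt5, Krt14 and Krt18 also had lower means in null, while Epcam had alike means of 0.866 CPM in null and 0.924 CPM in wild type. The part of these markers in the Cdh3 counts was not tested. Cdh15, the muscle cadherin, had between 0 and 3 counts in all libraries.

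Among the type II cadherins, 9 of 12 genes were tested, 7 with a positive and 2 with a negative log2 fold change, and 1 was called. That gene, Cdh22, encodes a cadherin known mainly from brain and pituitary and lies on chromosome 2, 165111507 to 165234853 (GRCm38, minus strand), 91.8 Mb from Sp9 on the same chromosome. It had 25.8, 20.4 and 27.5 CPM in null and 33.1, 29.2 and 34.9 CPM in wild type libraries, with means of 24.6 ± 3.69 CPM in null and 32.4 ± 2.93 CPM in wild type (SD, n = 3 each). All null libraries were below all wild type libraries, and replicate 2 was the lowest of each genotype. The log2 fold change was -0.41 (SE 0.11) with an adjusted p of 0.0192 by edgeR with the block, and -0.40 with 0.764 without it. The call was lost without pair 2 (adjusted p of 0.340 by edgeR), without pair 3 (0.150) and in DESeq2 with the block (0.561).

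Cdh11, a cadherin of mesenchyme and of the developing brain, had 59.3, 77.01 and 59.8 CPM in null and 48.6, 56.9 and 58.99 CPM in wild type libraries. The ranges were apart by a narrow margin, overlapped in the deposited FPKM, and gave a log2 fold change of 0.25 that was not called (edgeR adjusted p of 0.897 without and 0.0819 with the block). Cdh24, which is the most abundant type II gene, had 57.6, 58.1 and 51.95 CPM in null and 61.7, 59.1 and 57.6 CPM in wild type libraries. Its groups overlapped and its log2 fold change was -0.09. Cdh8, which marks compartments of the embryonic forebrain, had a log2 fold change of 0.01, with 49.8, 40.98 and 45.8 CPM in null and 52.5, 36.6 and 46.7 CPM in wild type libraries. Cdh7 had 15.5, 9.89 and 17.4 CPM in null and 14.6, 10.3 and 13.97 CPM in wild type libraries, and Cdh6 had 6.94, 10.45 and 10.1 CPM in null and 9.05, 7.57 and 6.89 CPM in wild type libraries. For Cdh6, Cdh7, Cdh9, Cdh10 and Cdh20 the log2 fold changes were all positive, between 0.06 for Cdh20 and 0.38 for Cdh9, with overlapping ranges and no call in either fit. The remaining type II genes were not tested. Cdh18 had 5, 2 and 12 counts in null and 6, 0 and 13 counts in wild type libraries. Cdh12 had 3, 0 and 4 counts in null and 11, 1 and 10 counts in wild type libraries, and Cdh19 had 1, 1 and 8 counts in null and 3, 2 and 3 counts in wild type libraries. All 3 were detected at a few counts in both genotypes.

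Of the 3 Celsr genes 1 was called with the block and 0 without it. Celsr3, which mice need for forebrain axon tracts and for interneuron migration, lies on chromosome 9, 108826320 to 108852969 (GRCm38, plus strand) and fell in the fit with the block. It had 282, 210.3 and 290.0 CPM in null and 331, 253 and 324 CPM in wild type libraries, and the ranges overlapped. Replicate 2 of both genotypes was lower than the rest, and each null library was below its same-numbered wild type library. The log2 fold change was -0.22 (SE 0.06) with an adjusted p of 0.0196 by edgeR with the block, and -0.22 with 0.904 without it. The call was lost without pair 2 (adjusted p of 0.340 by edgeR), without pair 3 (0.177) and in DESeq2 with the block (0.289), and the unblocked log2 fold change was -0.08 without null replicate 2.

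Celsr2, a relative of Celsr3 that acts with it in ependymal cilia, had 207, 217 and 214 CPM in null and 241, 227 and 241 CPM in wild type libraries. The null libraries were all lower, but the log2 fold change of -0.15 (SE 0.06) did not pass the threshold with the block (edgeR adjusted p of 0.156). Celsr1, known from planar polarity in the closing neural tube, had 51.9, 57.9 and 42.4 CPM in null and 53.9, 52.3 and 43.8 CPM in wild type libraries, with overlapping groups and a log2 fold change of 0.02.

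Of the 5 tested Fat and Dachsous genes 0 were called in either edgeR fit, with an unadjusted p under 0.05 for 0 without the block and for 2 with it. Dchs1, whose binding to Fat4 restrains neural progenitor growth in the mouse cortex, had 358, 284 and 332 CPM in null and 371, 292 and 340.0 CPM in wild type libraries, a log2 fold change of -0.04. Its receptor Fat4 had 175, 244 and 180.4 CPM in null and 175, 201 and 172 CPM in wild type libraries, with null replicate 2 above every other library and the rest of the null values inside the wild type range, a log2 fold change of 0.13. Fat1, an actin regulator of the neural tube, had 289.8, 367 and 284 CPM in null and 296, 335 and 297 CPM in wild type libraries, a log2 fold change of 0.02. Fat3, which shapes dendrites in the mouse retina, had 108, 92.3 and 144 CPM in null and 102, 79.3 and 113 CPM in wild type libraries. It was higher in null than in wild type in all 3 pairs and stood just outside the threshold with the block, with a log2 fold change of 0.22 (SE 0.07) and an edgeR adjusted p of 0.0543. It passed without pair 1 (0.00715) but not without pair 2 (0.366) or pair 3 (0.577), and the unblocked log2 fold change of 0.23 was 0.03 without null replicate 3 and 0.10 without wild type replicate 2. Dchs2, the rarer relative of Dchs1, had 4.48, 1.31 and 3.21 CPM in null and 1.77, 1.09 and 2.30 CPM in wild type libraries, with overlapping groups and a log2 fold change of 0.77 (SE 0.49), which was 0.39 without null replicate 1 and 1.155 without null replicate 2. Fat2 was not tested, with 0, 0 and 0 counts in null and 2, 0 and 2 counts in wild type libraries.

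The cadherins outside these classes were rare. Cdh13, or T-cadherin, which is tied to the membrane by a lipid anchor, had 6.08, 2.61 and 6.86 CPM in null and 3.85, 1.92 and 4.19 CPM in wild type libraries. Each null library was above the wild type library of its number, but the groups overlapped, and the log2 fold change of 0.62 (SE 0.25) was not called with the block (edgeR adjusted p of 0.175). Without the block it ranged from 0.35 without wild type replicate 2 to 0.97 without null replicate 2. Cdh23, the tip link partner of Pcdh15, had 1.88, 1.87 and 3.11 CPM in null and 1.46, 0.182 and 3.89 CPM in wild type libraries, with overlapping groups. Cdh17 had 4, 1 and 1 counts in null and 0, 0 and 0 counts in wild type libraries, Cdh26 had 0, 0 and 0 counts in null and 1, 0 and 1 counts in wild type libraries, and the kidney cadherin Cdh16 had 0 counts in all 6 libraries. A count of 0 in a library allows up to 0.434 CPM in the smallest library and covers counting error only.

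The libraries numbered 2 stood apart for many of these genes in both genotypes. Replicate 2 was the lowest library of its genotype in both genotypes for 20 of the 33 tested genes (60.6%), against 26.6% of all tested genes, and the highest in both for 4 (12.1%), against 25.5%. The 4 were Pcdh18, Pcdh19, Fat1 and Fat4. The median absolute difference on the log2 CPM scale between replicate 2 and the other replicates was 0.41 for the 33 genes, against 0.18 for all tested genes, while the median absolute log2 fold change between genotypes was 0.21, against 0.12. These values describe libraries whose numbers have no stated meaning, and they carry no test.

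Replicate 2 was lower by more than 0.5 on the log2 scale in both genotypes for 9 of the 33 genes, against 8.37% of all tested genes. These were Cdh4, Cdh9, Cdh13, Pcdh7, Pcdh8, Pcdh11x, Pcdh15, Pcdh17 and Dchs2. Cdh9, a type II cadherin, had 18, 1 and 8 counts in null and 13, 1 and 11 counts in wild type libraries, so 1 count remained in replicate 2 of each genotype. Of the more abundant genes the gap was widest for Pcdh8, followed by Cdh4, with the values given above. Markers of pallial excitatory neurons summed to 25.8, 1.31 and 46.6 CPM in null and 16.5, 1.37 and 22.7 CPM in wild type libraries. In replicates 1 and 3 the larger part of that sum came from Tbr1. It had 23.002, 0.0933 and 42.3 CPM in null and 14.7, 0.639 and 19.96 CPM in wild type libraries. Tbr1 was called higher with the block, at a log2 fold change of 0.81 (edgeR adjusted p of 0.0238). The other pallial markers were rare. Eomes and Emx1 were also lowest in replicate 2 of each genotype, but Neurod2, Neurod6 and Slc17a7 were not. Hypothalamic markers summed to 4.92, 0.560 and 6.64 CPM in null and 3.54, 1.003 and 4.19 CPM in wild type libraries. Both sums were lowest in replicate 2 of each genotype, and their part in the cadherin values was not tested. With replicate 2 of both genotypes left out and no block, an alternative chosen after seeing the data, Pcdh19 was called (edgeR adjusted p of 0.0152) and none of the other tested genes of the set was.

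**Figure D4:**
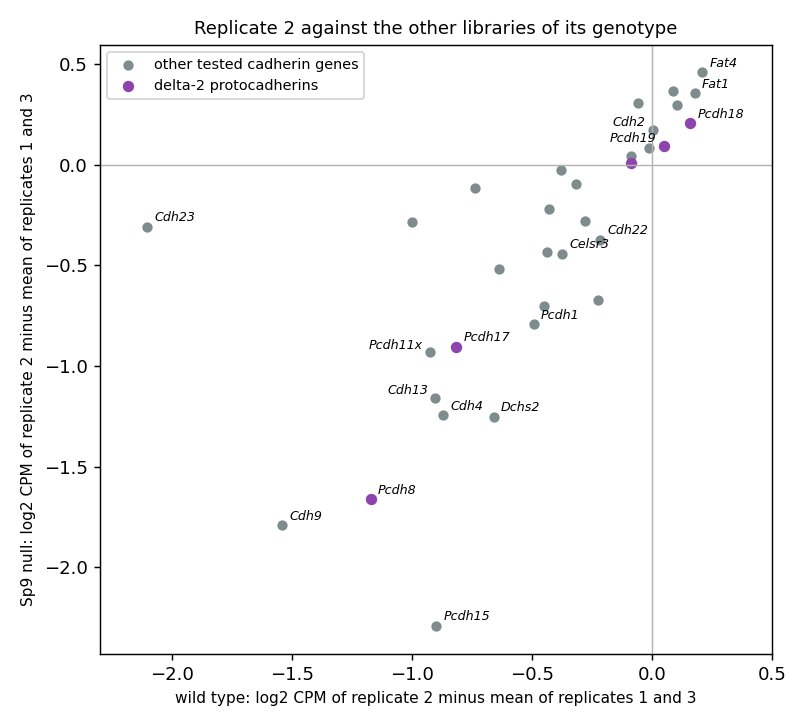
Log2 CPM of replicate 2 minus the mean of replicates 1 and 3, in null (vertical axis) and wild type (horizontal axis), for the 33 tested genes. Most points lie below 0 on both axes, while Pcdh19 and Pcdh18 lie above 0 on both. Pcdh15, Cdh9 and Pcdh8 are lowest on the null axis, and Cdh23 is lowest on the wild type axis. Purple points are the delta-2 protocadherins.

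None of the partner genes tested was called in either fit. Of 9 catenin genes 8 were tested, with an unadjusted p under 0.05 in edgeR for 0 of them without the block and for 2 with it. The most abundant, Ctnnb1, which encodes beta-catenin, had 1395, 1401 and 1187 CPM in null and 1375, 1527 and 1378 CPM in wild type libraries, a log2 fold change of -0.10. Of 12 planar polarity genes and Fat or Dachsous partners all were tested, and an unadjusted p under 0.05 was found for 1 without the block and for 4 with it. Over all tested genes these shares were 5.91% without the block and 17.2% with it. Scrib, a polarity scaffold and the most abundant of them, had a log2 fold change of -0.14. The 4 with an unadjusted p under 0.05 with the block (edgeR) were Fjx1, Dvl1, Dvl2 and Scrib, all lower in null libraries. Dvl3, Fzd3, Vangl2, Prickle1 and Prickle2 had positive log2 fold changes. Fjx1 had 42.5, 42.5 and 40.1 CPM in null and 48.8, 49.4 and 53.9 CPM in wild type libraries, without overlap. Its log2 fold change of -0.28 narrowly missed a call with the block (edgeR adjusted p of 0.0554). Among 19 other genes of the cadherin superfamily, 6 were tested, and in either edgeR fit 0 were called and 0 had an unadjusted p under 0.05. Clstn1, which encodes a synaptic calsyntenin and was the most abundant of these, had a log2 fold change of 0.04.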

How the data were processed

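Per the file headers, the deposited table holds whole-number counts per gene and library beside FPKM values. TopHat, Cufflinks 2.1.1 and GRCm38.p4 are named without a role, per the submitters' processing notes, and for the counting step no program is given in the sources used here. The authors' deposited FPKM equal the count over the library total and over 1 length per gene, within 0.001, for all 21180 genes checked. For the 43 genes those lengths were 0.292 to 3.37 times the merged exons of GENCODE M21, so levels between genes use CPM per kilobase of merged exon, chosen after seeing the data. Strandedness is not stated.

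Counts were tested with edgeR 4.0.16 (R 4.3.3) by the two-sided quasi-likelihood test, with TMM scaling, its default expression filter, robust dispersions and Benjamini-Hochberg adjustment over 14929 genes. Standard errors are approximate, from the fold change and the F statistic. The script was tested on simulated counts, drawn for each model from its own fit. The model without the block recovered 29.0% of 1.5-fold changes and the blocked model 59.4%, so changes of that size are often missed. Deviations from the genotype means correlated by 0.338, 0.741 and 0.549 between libraries numbered 1, 2 and 3, all over 0.1, so the replicate number was treated as pairing the libraries. This pairing comes from the data, and numbers 1 and 3 correlated by 0.366 and 0.234 when crossed. The crossed values are also over 0.1, so that cutoff cannot decide how numbers 1 and 3 pair. Replicates of a genotype differed by more than counting noise (chi-square per degree of freedom 3.28 to 21.94). DESeq2 1.42.0, limma 3.58.1 on log2(FPKM + 1) and log2(FPKM + 0.1), RLE scaling, no filter and left-out libraries served as alternatives.

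The 43 genes and the gene lists were chosen with earlier results of these data known. Named genes were those called in either fit, the 12 with the highest FPKM, those with separate ranges, and the 8 that differed most between replicate 2 and the rest. Others of the set are named to account for them.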

Additional observations from a re-analysis of the deposited data

How the results depend on the processing

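Without the replicate block, 0 of the cadherin and protocadherin genes were called in the fit as designed, with RLE scaling, with limma on FPKM, and without any 1 library (range 0 to 0). The count was 1 with no expression filter, with DESeq2 and without replicate 2 of both genotypes, each time Pcdh19. The replicate block gave 5, or 1 in DESeq2, and without pair 1, 2 or 3 it gave 7, 1 and 3. The partner genes had 0 calls (range 0 to 0 without any 1 library), except 2 (Ctnnb1 and Fjx1, both lower in null libraries) with the block without pair 1. The block changed no other call among the named and partner genes, and the cause of these shifts was not tested. The median log2 fold change ranged from -0.0386 to 0.249 without any 1 library. Genes with separate ranges numbered 6 in CPM and 5 in FPKM.

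Of 441 combinations of 26 named genes and 17 alternatives, 31 changed sign, all in genes called in none of them. Without any 1 library the log2 fold change ranged from -0.22 to 1.51 for Cdh23, -0.15 to 0.54 for Cdh4, -0.844 to 0.997 for Cdh9, -0.127 to 0.0485 for Dchs1, -0.105 to 0.0882 for Fat1, -0.0382 to 0.218 for Fat4, -0.15 to 0.37 for Pcdh17, -0.48 to 0.40 for Pcdh8 and -0.0732 to 0.128 for Clstn1. With the replicate block and without pair 3 it was -0.12 for Cdh4 and -0.0665 for Pcdh17. With the block and without pair 2 it was -0.0749 for Cdh23, -0.0425 for Fat1 and 0.0821 for Pcdh8, and without pair 1 it was 0.00582 for Pcdh8. Without replicate 2 of both genotypes it was -0.0733 for Cdh23, -0.0425 for Fat1 and 0.10 for Pcdh8. Fat1 was at -0.00747 and -0.00823 in limma on log2(FPKM + 1) and log2(FPKM + 0.1), and Pcdh8 at 0.00621 with RLE scaling and 0.00771 in DESeq2. Depth limits the 10 untested genes, which had at most 50 counts over the 6 libraries.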
